A study of Gallus gallus with 4 samples.

Results

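MAF, RORA and IKZF2 are 3 genes for transcription factors that help to set what a T cell does once it has left the thymus. They were taken by symbol from the 15271 genes of a single-cell RNA sequencing matrix of chicken blood leukocytes. Their levels were read in groups of T cells that were set by other genes, so that no value of MAF, RORA or IKZF2 chose a cell. Of the 12042 cells used, 7182 passed a T-cell gate, a summed score of at least 1 over CD3D, CD3E, CD247, BCL11B and THEMIS in a cell that met no threshold for another blood cell type. Within the gate, 1784 gamma-delta cells had a summed score of at least 4 for KCNQ1, SOX13 and PTPN14, 25 DAW1 cells had at least 3 for DAW1, and 441 IL2RA/CTLA4 cells had at least 1 for IL2RA and CTLA4 together. A cell that met exactly 1 of these rules was kept in that group. The 996 CD4 cells and 643 CD8A cells met none of the 3 rules and had a score of at least 1 for CD4 or for CD8A, not for both.

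The cells came from the blood of 4 untreated, clinically healthy laying hens of 24 weeks, all of 1 condition, which the labels give as Bovans Robust hybrids and the study's methods as a Dekalb White, Leghorn-type line. White cells were enriched on a Ficoll gradient, thrombocytes were depleted with antibodies to CD41/61, and droplet-based 3′ libraries were made, 1 from each hen. The deposited scores were whole numbers that had been brought to a near-common total of 1577 to 3004 per cell. A level is given here as the score of a gene per 10000 of the summed score of a group in 1 library, as a mean ± SD over libraries, and a cell is said to have a gene where its score was 1 or more. Each level was compared with the level of the same gene in other cells, never with that of another gene.

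In mammals, MAF (c-Maf), a basic leucine zipper factor, works in T helper 2, follicular helper, interleukin 17-producing and regulatory T cells, where it drives cytokine genes such as those for interleukins 4 and 10. RORA (RORα) is a nuclear receptor that works in interleukin 17-producing T cells, is needed for group 2 innate lymphoid cells and also takes part in the circadian clock. IKZF2 (Helios) is a zinc finger protein of the Ikaros family that marks many regulatory T cells in mouse and human, and it is also made by some cytolytic and gamma-delta T cells. In the chicken genome (GRCg7b), the RefSeq annotation places MAF on chromosome 11 from 14174786 to 14334814, a span that overlaps the gene WWOX. RORA lies on chromosome 10 from 4676286 to 5064573, where it overlaps 2 long non-coding RNA genes. IKZF2 lies on chromosome 7 from 3703513 to 3814990 and overlaps no annotated gene. The sources used here do not say whether counting used the strand, so reads of MAF and RORA were not told apart here from those of their overlapping genes.

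The libraries held 4452, 2697, 4893 and 4894 cells, with summed scores of 10500637, 6517674, 11808169 and 11818239. Libraries 3 and 4 shared 4890 barcodes and 0.682% of their score differed, and the score of MAF was equal in 4864, of RORA in 4840 and of IKZF2 in 4881 of the shared cells. They differed by less than the sampling noise between 2 libraries, so they were counted as 1 sample, library 4 was left out and n is 3 hens. The other pairs of libraries shared 1 to 9 barcodes. The DAW1 group held 7, 2 and 16 cells in libraries 1 to 3, and the other 4 groups held between 64 and 654 cells in each library. Adjusted p-values rest on the spread of library profiles within groups, pooled over the groups. That spread holds the counting noise of small profiles as well as differences between the 3 hens. Profiles of the same hen were treated as independent, except in the fit with the hen as a block.

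The groups carried genes that their rules did not use. TARP, a transcript of the T-cell receptor gamma locus, was present in 87.5% of gamma-delta cells, at a level of 16.7 ± 2.35, against 0.776 ± 0.106 in CD4 cells. KK34, a chicken cytokine gene related to interleukin 5, was present in 48.0% of gamma-delta cells and 2.01% of CD4 cells. TARP was also present in 49.5% of CD8A cells and 24.5% of IL2RA/CTLA4 cells. ICOS, a co-stimulatory receptor of helper and regulatory T cells, was present in 58.0% of IL2RA/CTLA4 cells and 52.6% of CD4 cells, whereas TNFRSF18, a receptor that marks regulatory T cells in mouse and human, was present in only 3.85% and 2.31%. CD4 was present in 36.3% of IL2RA/CTLA4 cells. The group is therefore called by its rule and not as regulatory T cells.

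MAF had its highest level in gamma-delta cells. In libraries 1 to 3 the level was 14.1, 14.3 and 15.5 in gamma-delta cells (14.6 ± 0.773, SD, n = 3) and 3.74, 2.87 and 6.44 in IL2RA/CTLA4 cells (4.35 ± 1.86, n = 3). It was 1.11, 0.836 and 1.16 in CD4 cells (1.03 ± 0.173, n = 3) and 0.586, 0.301 and 0.237 in CD8A cells (0.375 ± 0.186, n = 3). The libraries of these 4 groups did not overlap, in the order gamma-delta, IL2RA/CTLA4, CD4 and CD8A. MAF was present in 81.9% of gamma-delta cells, 36.1% of IL2RA/CTLA4 cells, 13.1% of CD4 cells and 4.67% of CD8A cells. In gamma-delta cells the median score was 3 per cell, and 393 cells had a score of 6 or more. With every cell thinned to a total score of 1500, the shares, as means of the libraries, were 73.9%, 29.5%, 8.98% and 3.78%, against 81.9%, 34.6%, 12.2% and 4.92% before thinning. The gamma-delta cells are 14.8% of all cells used and held 61.6% of the MAF score.

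**Figure D1:**
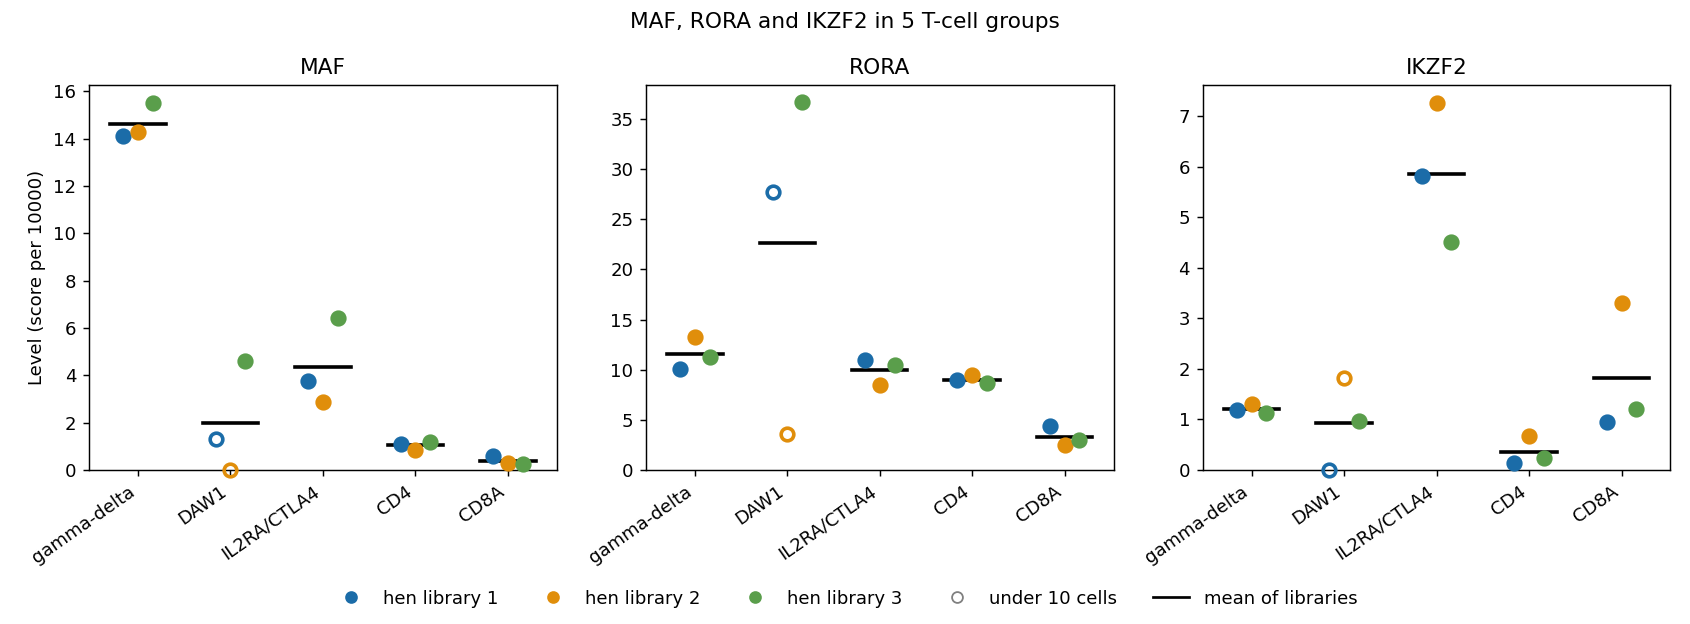
Level of MAF, RORA and IKZF2 (score per 10000, vertical axis) in the 5 T-cell groups, with 1 point for each hen library, open where the library had under 10 cells of the group, and a black line at the mean of the 3 libraries. MAF lies between 14.1 and 15.5 in gamma-delta cells, RORA between 3.61 and 36.7 in DAW1 cells, and IKZF2 between 4.51 and 7.26 in IL2RA/CTLA4 cells.

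The difference of MAF between gamma-delta and CD4 cells was 3.71 on the log2 scale (13.1-fold, SE 0.97, higher in 3 of 3 libraries). In the limma fit over the 5 groups it did not pass the threshold of 0.05 (adjusted p = 0.0870), and 1.91% of the 10766 genes tested did. This fit takes 1 spread from all groups, and the DAW1 profiles of few cells widen it. With the DAW1 group left out of the fit, a choice made after the cell numbers were seen, the SE was 0.25 and the adjusted p was 1.55e-09 (95% confidence interval 3.18 to 4.24), where 8.21% of 10232 genes passed. Differences that do not involve DAW1 cells are therefore given from both fits where 2 values of p follow each other, first over 5 groups and then without DAW1 cells.

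MAF was also higher in IL2RA/CTLA4 than in CD4 cells by 1.90 (3.74-fold, 3 of 3 libraries), with an adjusted p of 1.00 and then 2.04e-04 (interval 1.37 to 2.43). In this comparison 0.0557% and then 1.34% of genes passed. The genes tested include IL2RA and CTLA4, which CD4 cells lack by the rule, so these shares are not free of the choice of cells. In CD8A cells MAF was lower than in CD4 cells by 1.31 on the log2 scale (log2 difference -1.31, 3 of 3 libraries, adjusted p = 1.00 and then 0.00189), where 0.799% and then 6.51% of genes passed. The last call was lost without library 3 (adjusted p = 0.0568). Gamma-delta cells exceeded IL2RA/CTLA4 cells by 1.81 (adjusted p = 0.903 and then 6.17e-05), beside 1.10% and then 7.36% of genes called. They exceeded CD8A cells by 5.02 (32.5-fold), which passed in both fits (adjusted p = 0.00985 and then 2.04e-11), beside 2.74% and then 12.0% of genes called. In the fit over 5 groups that call was lost without library 1 (0.210) or library 3 (0.126).

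**Figure D2:**
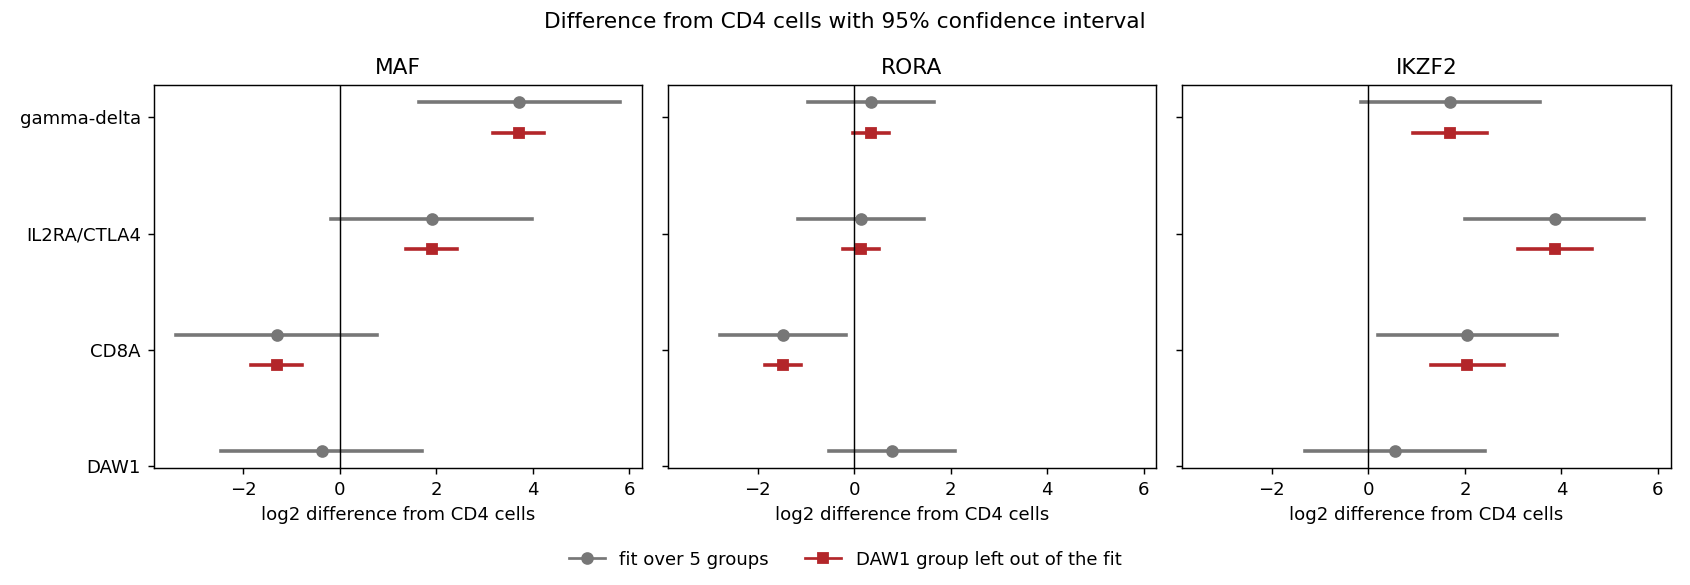
Difference of each gene from CD4 cells on the log2 scale (horizontal axis), as a point with its 95% confidence interval, from the limma fit over 5 groups (grey circles) and from the fit with the DAW1 group left out (red squares). The differences are the same in both fits and the intervals differ in width, as for MAF in gamma-delta cells (1.63 to 5.80 and 3.18 to 4.24).

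MAF followed the gamma-delta markers outside the gamma-delta group too. Over the cells of the gate, the level of MAF was 0.932 where the summed score of KCNQ1, SOX13 and PTPN14 was 0, 4.49 where it was 1 and 8.95 where it was 2. It was 13.8 at 3, as the mean of libraries 1 and 3, then 13.3 at 4, 15.2 at 5 to 9 and 15 at 10 or more. The level of the gamma-delta group was thus nearly reached at a score of 3, in 142 cells below the minimum of 4 for that group. In CD4 cells it was 0.933 in the 960 cells with none of the 3 markers and 4.76 in the 36 cells with a sum of 1 to 3. Of the IL2RA/CTLA4 cells, 371 had none of the 3 markers. MAF was 2.46, 2.13 and 3.25 in these cells in libraries 1 to 3 (2.61 ± 0.574), still above every library of the CD4 cells. In the other 70 cells it was 15.2 (mean of 2 libraries with at least 10 cells). The 333 IL2RA/CTLA4 cells without TARP gave 2.73 ± 0.641. Part of the MAF score of the IL2RA/CTLA4 group thus lay in cells with gamma-delta markers, and the difference from CD4 cells was also present without them, though this last difference was not tested.

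**Figure D3:**
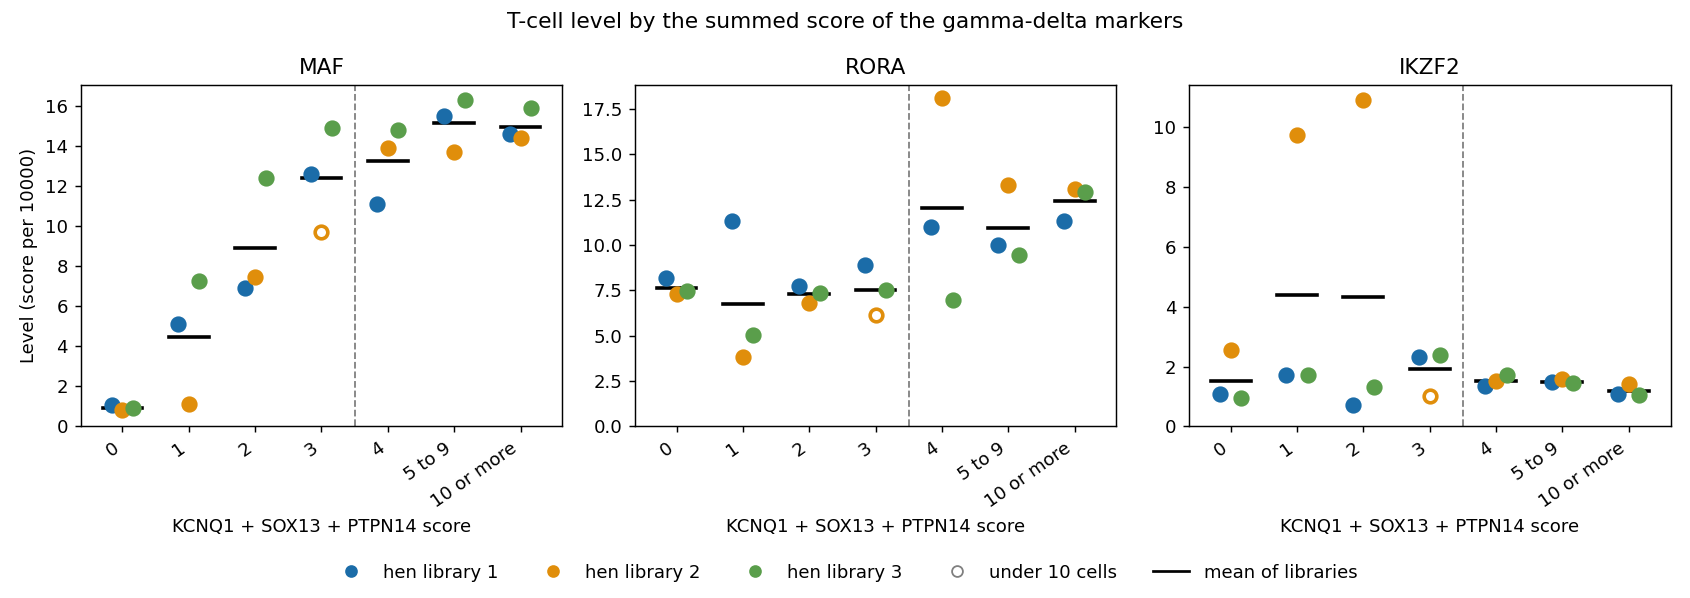
Level of each gene (score per 10000, vertical axis) in the cells of the T-cell gate, by the summed score of KCNQ1, SOX13 and PTPN14 (horizontal axis), with 1 point for each hen library and a black line at their mean; the dashed line marks the minimum of 4 used for the gamma-delta group. MAF climbs from 0.932 at a score of 0 to 13.8 at 3 (mean of libraries 1 and 3) and is 13.3 at 4, while IKZF2 has its highest points at 1 and 2, in library 2.

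RORA was spread over the T cells more evenly than MAF, with a low level in CD8A cells. In libraries 1 to 3 its level was 10.1, 13.3 and 11.3 in gamma-delta cells (11.6 ± 1.63, n = 3) and 11.0, 8.48 and 10.5 in IL2RA/CTLA4 cells (10.0 ± 1.33, n = 3). It was 8.93, 9.42 and 8.65 in CD4 cells (9.0 ± 0.389, n = 3) and 4.36, 2.44 and 3.03 in CD8A cells (3.28 ± 0.984, n = 3). The IL2RA/CTLA4 libraries overlapped those of gamma-delta and of CD4 cells, the gamma-delta libraries lay above those of CD4 cells, and every CD8A library lay below all of them. RORA was present in 65.1% of gamma-delta, 69.2% of IL2RA/CTLA4, 71.5% of CD4 and 40.0% of CD8A cells. Thinned to a total of 1500, the shares were 56.3%, 57.7%, 58.5% and 28.9%, against 65.4%, 68.8%, 71.7% and 39.5% before.

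In CD8A cells RORA was lower than in CD4 cells by 1.47 on the log2 scale (log2 difference -1.47, SE 0.61 and then 0.18, lower in 3 of 3 libraries), with an adjusted p of 0.658 over 5 groups and 1.13e-05 without DAW1 cells. It was lower in CD8A cells than in gamma-delta cells by 1.82 (adjusted p = 0.196 and then 2.36e-07) and lower than in IL2RA/CTLA4 cells by 1.61 (adjusted p = 0.490 and then 5.92e-06). In this last comparison 0.725% and then 6.14% of all genes passed. The other 3 groups did not differ past the threshold in either fit. Without DAW1 cells, the difference from CD4 cells was 0.35 in gamma-delta cells (interval -0.02 to 0.72, adjusted p = 0.342) and 0.14 in IL2RA/CTLA4 cells (interval -0.23 to 0.51, adjusted p = 0.830). Between gamma-delta and IL2RA/CTLA4 cells it was 0.21 (interval -0.16 to 0.58, adjusted p = 0.605).

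The highest values of RORA were those of DAW1 cells, which are few. RORA was 27.7 in the 7 cells of library 1, 3.61 in the 2 cells of library 2 and 36.7 in the 16 cells of library 3. It was present in 88.0% of the 25 cells, with a median score of 9 per cell, against 1 in gamma-delta, IL2RA/CTLA4 and CD4 cells. Libraries 1 and 3 lay above all libraries of the other groups and library 2 lay inside their range. Of the 25 cells, 7 had CD8A and no CD4, and the 2 cells of library 2 were among them. RORA was present in 71.4% of these 7 cells, with a summed score of 27. In the 14 cells with neither CD4 nor CD8A it was present in 92.9%, with a summed score of 129. This split was not tested. A wider set of all 59 cells of the gate with a DAW1 score of at least 3, of which 33 also had IL2RA or CTLA4, gave 30.2, 6.72 and 45.3 in 17, 5 and 37 cells. Over all cells of the gate, RORA was 8.78 where DAW1 was 0 and 15.7 where it was 1, the latter from 2 libraries at 12.5 and 18.9. It was 20.6 at 4 to 6, from 1 library alone, and 41.0 at 7 or more, from 2 libraries at 28.2 and 53.8.

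The difference of RORA between DAW1 and CD4 cells was 0.78 on the log2 scale (SE 0.61, adjusted p = 0.350) and did not pass the threshold, where 29.4% of all genes did, with a median over all genes of -0.65. Of these calls 2971 were lower in the small DAW1 profiles, where many genes stand at 0, so the count is not read here as a property of the cells. With profiles of fewer than 10 cells left out, which leaves library 3 alone for DAW1 cells, the difference was 2.02. This value rests on 1 profile, so no p-value is given for it. RORA was 2.25 higher in DAW1 than in CD8A cells (adjusted p = 0.0145, beside 29.5% of genes called), a call that was lost without library 1 (0.138) or library 3 (0.186). It did not differ past the threshold from IL2RA/CTLA4 cells (0.64, interval -0.67 to 1.95, adjusted p = 0.448) or from gamma-delta cells (gamma-delta against DAW1 -0.43, interval -1.74 to 0.88, adjusted p = 0.627), comparisons in which 27.6% and 28.9% of genes were called.

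MAF in DAW1 cells was 1.29, 0 and 4.62 in libraries 1 to 3, so that the mean of 1.97 lay above that of CD4 cells while the log2 difference was -0.37 (adjusted p = 0.797), its sign set by the 0 of 2 cells. Gamma-delta cells had more MAF than DAW1 cells by 4.08 (adjusted p = 0.00720), a call lost without library 1 (0.0783). IKZF2 was 0, 1.81 and 0.973 in DAW1 cells and was lower there than in IL2RA/CTLA4 cells by 3.31 (log2 difference -3.31, adjusted p = 0.0124), which was lost without library 1 (0.0671) or library 3 (0.0565). Against CD4 cells IKZF2 differed by 0.55 (adjusted p = 0.657). CCR6, a chemokine receptor of interleukin 17-producing T cells in mammals, was present in 28.0% of the 25 DAW1 cells and 0.201% of CD4 cells.

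IKZF2 had its highest level in IL2RA/CTLA4 cells. In libraries 1 to 3 it was 5.82, 7.26 and 4.51 in these cells (5.86 ± 1.38, n = 3) and 0.948, 3.31 and 1.21 in CD8A cells (1.82 ± 1.29, n = 3). It was 1.18, 1.31 and 1.13 in gamma-delta cells (1.20 ± 0.0913, n = 3) and 0.143, 0.678 and 0.245 in CD4 cells (0.355 ± 0.284, n = 3). Every IL2RA/CTLA4 library lay above all libraries of the other 3 groups, the CD8A and gamma-delta libraries overlapped, and every CD4 library lay below all of them. IKZF2 was present in 28.6%, 12.6%, 14.4% and 3.21% of the cells of the 4 groups in this order. Thinned to a total of 1500, the shares were 24.4%, 10.8%, 11.0% and 2.45%, against 29.7%, 13.8%, 14.5% and 3.49% before. Library 2 had the highest IKZF2 of the 3 in each of the 4 groups.

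IKZF2 differed between IL2RA/CTLA4 and CD4 cells by 3.86 on the log2 scale (14.5-fold, SE 0.86 and then 0.37, higher in 3 of 3 libraries), with an adjusted p of 0.288 over 5 groups and 2.36e-06 without DAW1 cells (interval 3.10 to 4.63). It exceeded gamma-delta cells by 2.17 (gamma-delta against IL2RA/CTLA4 -2.17, adjusted p = 0.520 and then 4.52e-04) and CD8A cells by 1.81 (adjusted p = 0.772 and then 0.00354). The last call was lost without library 1 (0.0772) or library 3 (0.0717). CD8A cells exceeded CD4 cells by 2.05 (adjusted p = 0.680 and then 8.52e-04). Of the 643 CD8A cells, 11 had a score of 6 or more and held 49.4% of the group's IKZF2. In the 598 CD8A cells with none of the gamma-delta markers the level was 1.24 ± 0.685, which was not tested. Gamma-delta cells exceeded CD4 cells by 1.69 (adjusted p = 0.896 and then 0.00364), which was lost without library 1 (0.102) or library 3 (0.0876). Gamma-delta and CD8A cells did not differ past the threshold (-0.36, interval -1.13 to 0.41, adjusted p = 1.00 and then 0.645).

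Over 5 groups, 0 of the 3 genes were thus called against CD4 cells in gamma-delta, IL2RA/CTLA4 or CD8A cells, beside 1.91%, 0.0557% and 0.799% of all genes. At an unadjusted p under 0.05 there were 1, 1 and 2, beside 723, 403 and 650 of the 10766 genes tested. Without DAW1 cells MAF and IKZF2 were called in gamma-delta cells, beside 8.21% of all genes. The same 2 genes were called in IL2RA/CTLA4 cells, beside 1.34%. In CD8A cells all 3 were called, 2 of them lower for CD8A cells, beside 6.51%.

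Within the IL2RA/CTLA4 cells, IKZF2 went with IL2RA, which encodes the interleukin 2 receptor α chain, more than with CTLA4, which encodes an inhibitory receptor. The 202 cells with CTLA4 alone had a level of 1.07, 1.26 and 0.799 in libraries 1 to 3 (1.04 ± 0.231). The 170 cells with IL2RA alone had 7.78, 15.2 and 7.40 (10.1 ± 4.40), and the 69 cells with both had 14.1, 16.1 and 7.56 (12.6 ± 4.48). Each library of the cells with IL2RA lay above each library of the cells with CTLA4 alone, and IKZF2 was present in 60.9% of the cells with both. These groups were drawn after the first values had been seen and the split was not tested. In the 112 cells with IL2RA alone and none of the gamma-delta markers, IKZF2 was 9.63, 14.3 and 10.6. The score was concentrated in few cells, as 31 of the 441 cells had a score of 6 or more and held 66.0% of the group's IKZF2. These 31 cells lay in all libraries, 12 in library 1, 7 in library 2 and 12 in library 3.

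MAF was 5.78, 8.0 and 11.6 with IL2RA alone, 1.56, 1.05 and 1.76 with CTLA4 alone, and 4.71, 2.26 and 6.32 with both. Much of the MAF with IL2RA alone lay in 58 cells with gamma-delta markers, at 16.8 (mean of 2 libraries). In the 112 cells with IL2RA alone and none of these markers, MAF was 4.11 ± 1.17 (2.76 to 4.89), which was not tested. RORA was closer between the groups, at 12.6, 11.5 and 11.2 with IL2RA alone, 9.63, 8.71 and 9.96 with CTLA4 alone, and 10.7, 4.19 and 10.6 with both. Among the 157 IL2RA/CTLA4 cells that also had CD4, the levels were 2.48 ± 0.489 for MAF, 8.62 ± 0.993 for RORA and 6.61 ± 1.87 for IKZF2. In the 270 cells with neither CD4 nor CD8A they were 5.79 ± 3.07, 10.8 ± 2.36 and 5.68 ± 1.27.

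**Figure D4:**
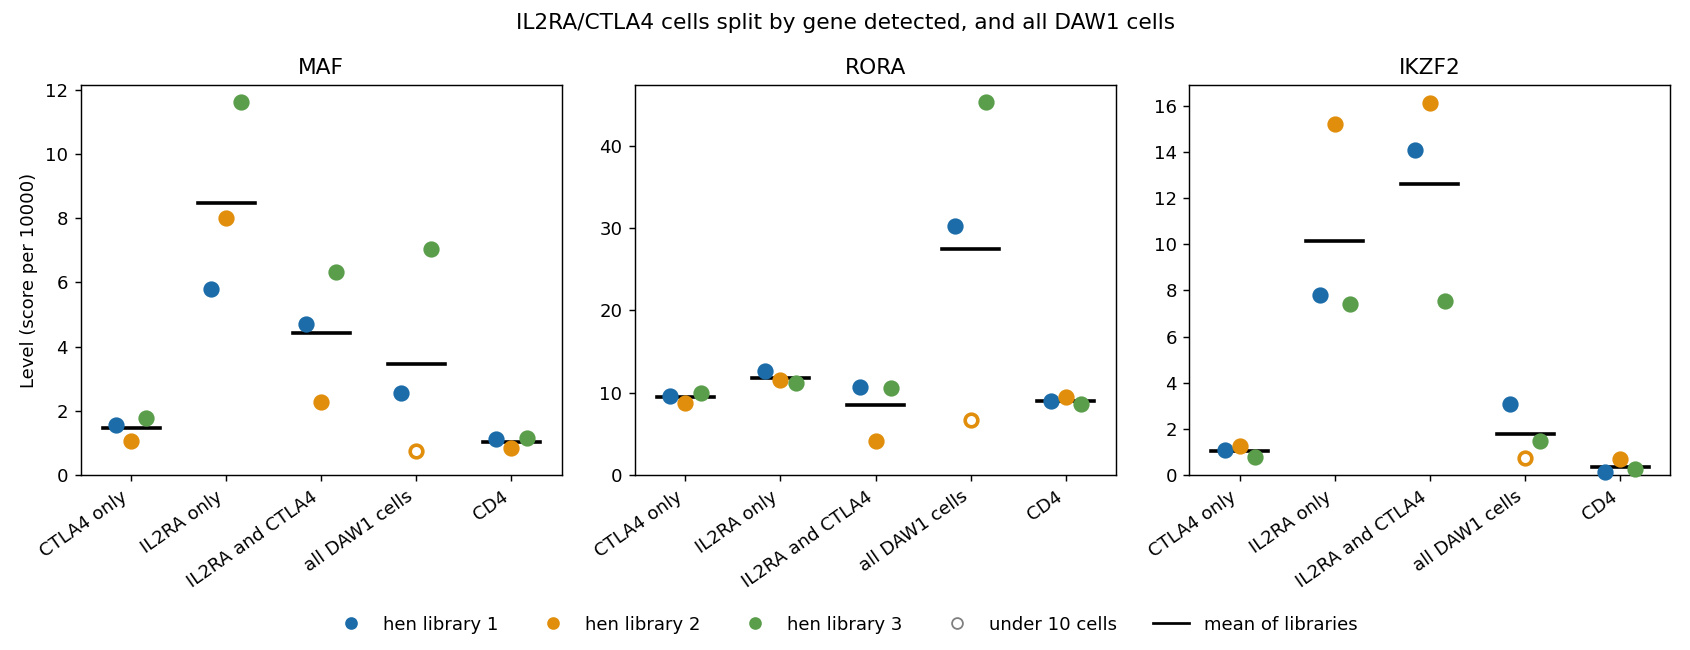
Level of each gene (score per 10000, vertical axis) in IL2RA/CTLA4 cells split by which of the 2 genes they had, in all DAW1 cells of the gate and in CD4 cells, with 1 point for each hen library, open under 10 cells, and a black line at the mean. IKZF2 lies between 0.799 and 1.26 with CTLA4 alone and between 7.40 and 16.1 with IL2RA, and RORA reaches 45.3 in DAW1 cells.

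The share of cells with 2 of the 3 genes was set beside the product of the single shares, as means of the libraries. In gamma-delta cells MAF and RORA were both present in 54.3% of cells against a product of 53.6%, MAF and IKZF2 in 12.2% against 11.9%, and RORA and IKZF2 in 10.7% against 9.49%. The first pair was above its product in 2 of 3 libraries and the other pairs in 3 of 3. In IL2RA/CTLA4 cells MAF met RORA in 27.8% of cells against a product of 23.9%, and met IKZF2 in 13.4% against 10.1%, above the product in 3 of 3 libraries for both pairs. The excess for MAF and IKZF2 was not present in every part of the group. With IL2RA alone they met in 20.3% against 22.9%, above the product in 0 of 3 libraries. With CTLA4 alone it was 4.00% against 2.09% (3 of 3), and with both genes 31.6% against 29.6% (2 of 3). RORA and IKZF2 were both present in 19.4% of all IL2RA/CTLA4 cells against 20.4%. In CD4 cells MAF and IKZF2 met in 1.12% against 0.409%. These shares describe the cells and were not tested.

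Gamma-delta cells with and without KK34 were compared next, since KK34 divides this group. The 856 cells with KK34 and the 928 without it did not differ past the threshold in any of the 3 genes, where 3.93% of 9288 genes did. MAF was 15.1 ± 0.645 and 14.1 ± 0.874 (log2 difference 0.10, interval -0.19 to 0.39, adjusted p = 0.746, limma, n = 3 and 3). RORA was 11.4 and 11.7 (-0.03, interval -0.36 to 0.29, adjusted p = 0.939) and IKZF2 1.17 and 1.24 (-0.08, interval -0.45 to 0.29, adjusted p = 0.852). At an unadjusted p under 0.05 the count was also 0, beside 1576 of the 9288 genes. MAF was present in 89.4% and 75.0% of the cells, or in 80.1% and 67.9% after thinning, beside median totals of 2594 and 2217.5.

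Outside the T cells, the 3 genes were low in B cells, monocytes and thrombocytes. MAF was present in 0.835% of 2035 B cells, 0.767% of 1564 monocytes and 1.90% of 211 thrombocytes, and RORA in 1.43%, 0.639% and 1.42%. IKZF2 was present in 0.0983% of B cells, 0.256% of monocytes and 0 of the 211 thrombocytes, which allows a share of up to 1.42%. The median totals of these 3 groups were 2393, 2407 and 2008, against 2417.5 in gamma-delta and 2615.5 in CD4 cells. The shares of every T group with at least 64 cells in each library lay above these. By library, the lowest share of MAF in CD8A cells (2.31%) lay under the highest in thrombocytes (2.86%). In 52 red blood cells MAF was present in 3.85%, RORA in 5.77% and IKZF2 in 0% of cells. How much of these low shares came from free RNA was not tested. The 842 cytolytic cells, those with GNLY, GZMA, GZMM or FASLG at a summed score of at least 3, had 0.296 for MAF, 3.83 for RORA and 2.74 for IKZF2. Of the CD8A cells, the 349 with these cytolytic genes had 0.176 for MAF, 3.01 for RORA and 2.28 for IKZF2, and the 294 without them had 0.614, 3.44 and 1.10. The 2822 cells of the gate that met no rule held 29.5% of the RORA score, 26.7% of the IKZF2 score and 11.4% of the MAF score.

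**Figure D5:**
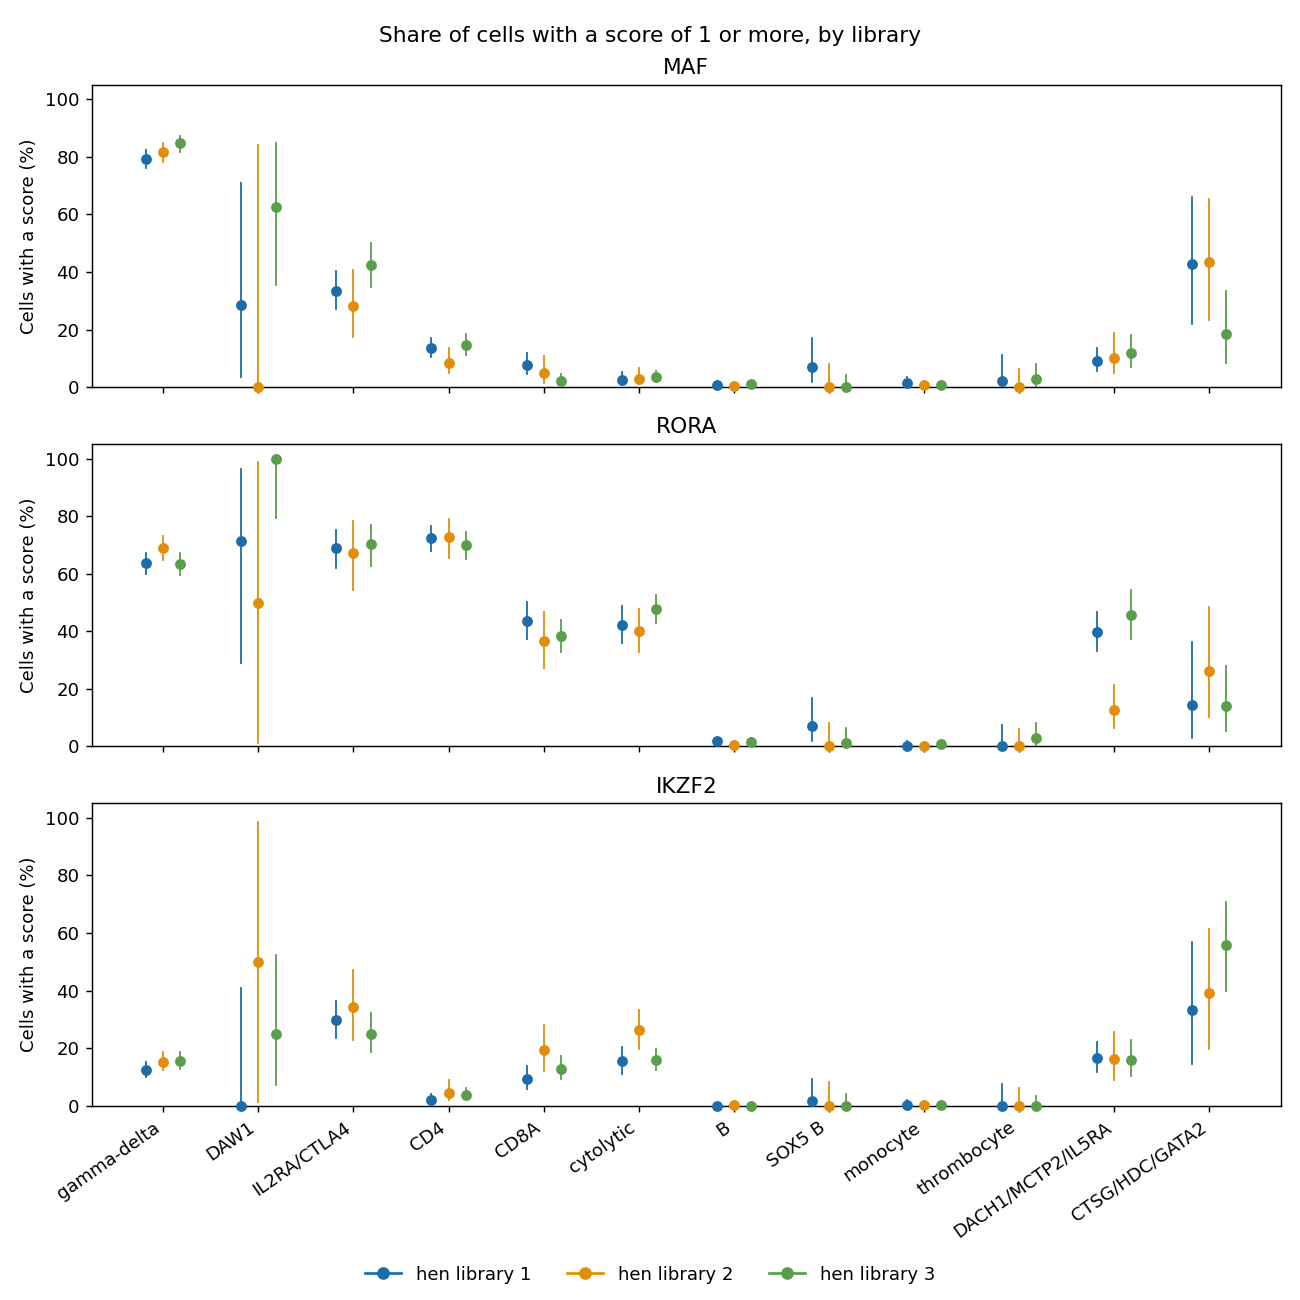
Share of cells with a score of 1 or more (percent, vertical axis) of MAF, RORA and IKZF2 in the 5 T-cell groups, in cytolytic cells and in other blood cell groups, with 1 point for each hen library and its 95% Clopper-Pearson interval, which covers counting error only. MAF stands at 81.9% over all gamma-delta cells, and B cells, monocytes and thrombocytes lie near 0 for all 3 genes.

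The relatives of the 3 genes in each family were read in the same fits. Of 7 genes listed for the Maf family, 4 could be tested, and against CD4 cells MAF alone of them was called in the fits without DAW1 cells. Over 5 groups, MAFF (log2 difference -0.77, adjusted p = 0.0313) and the Ikaros family gene IKZF5 (-0.80, adjusted p = 0.0102) were called lower in DAW1 cells. Both stood at 0 there, and 27.6% of all genes were called lower in these small profiles. Among the ROR and REV-ERB receptors, RORA was called against CD4 cells in CD8A cells, in the fit without DAW1 cells. In DAW1 cells the clock repressor NR1D1 (0.683 ± 0.980 against a level of 0 in all CD4 libraries, adjusted p = 0.0435) was called higher. NR1D1 reached the minimum mean for testing through DAW1 cells alone, with 0.00706 in gamma-delta, 0.00575 in CD8A and 0 in IL2RA/CTLA4 cells. It was higher in 2 of 3 libraries of these few cells, so its call is not read as a result. Of the 5 Ikaros family genes, IKZF3 (Aiolos) was called beside IKZF2 without DAW1 cells, higher in gamma-delta cells by 0.72 (2.60 ± 0.786 against 1.51 ± 0.280, adjusted p = 1.00 and then 0.0377) and in CD8A cells by 0.73 (2.57 ± 0.388, adjusted p = 1.00 and then 0.0399). IKZF1 (Ikaros) stood at 14.6 ± 0.821 in gamma-delta, 13.8 ± 1.32 in IL2RA/CTLA4, 15.2 ± 1.86 in CD4 and 14.4 ± 0.630 in CD8A cells, and was not called.

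Among 13 helper lineage factors tested, GATA3, the factor of T helper 2 cells, was called higher in gamma-delta than in CD4 cells in both fits (log2 difference 1.27, 11.0 ± 0.604 against 4.52 ± 0.433, adjusted p = 0.00747 and then 1.49e-05). It was lower in CD8A cells by 1.67 (log2 difference -1.67, 1.37 ± 0.238, adjusted p = 0.00161 and then 9.11e-07). TBX21 (T-bet), the factor of type 1 responses, was higher in CD8A cells by 1.94 (0.320 ± 0.0225 against 0.00972, adjusted p = 0.00126 and then 3.69e-05). RUNX1 was lower there (log2 difference -0.74, adjusted p = 0.0289 and then 0.00346). Over 5 groups, 1 of the 13 was called higher in gamma-delta cells, beside 1.26% of all genes, and 1 higher and 2 lower in CD8A cells, beside 0.706% and 0.0929%. In IL2RA/CTLA4 cells 0 were called, where 2 had an unadjusted p under 0.05, beside 403 of 10766 genes. The 3 called lower in DAW1 cells are no more than the 27.6% of all genes called lower there. Without DAW1 cells, 2 were higher and 1 lower in gamma-delta cells, 5 higher and 3 lower in CD8A cells, and 1 was higher in IL2RA/CTLA4 cells, namely PRDM1 (Blimp-1, log2 difference 1.84, 0.384 ± 0.143 against 0.0336 ± 0.0311, adjusted p = 1.00 and then 0.00257). In CD8A cells PRDM1 (2.38, 0.638 ± 0.365, adjusted p = 0.341 and then 2.91e-05) and EOMES, a factor of cytolytic T cells (2.14, 0.428 ± 0.193 against 0.0141 ± 0.0123), had the largest differences upwards. EOMES reached the filter mean of 0.05 without DAW1 cells in CD8A cells alone, so its call is not read as a result. For this list and those below, the shares of all genes called higher and lower without DAW1 cells were 4.54% and 3.66% in gamma-delta cells. They were 0.987% and 0.352% in IL2RA/CTLA4 cells and 3.56% and 2.95% in CD8A cells.

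Of the helper cytokines and receptors, KK34 rose in gamma-delta cells by 4.39 (4.10 ± 0.515 against 0.106 ± 0.0663, adjusted p = 0.0105 and then 2.07e-07), the only 1 of 9 tested that was called over 5 groups in these cells. In DAW1 cells 2 of the 9 were called higher, beside 1.81% of all genes, CCR6 (4.34, adjusted p = 1.56e-04) and IL18R1 (2.87, adjusted p = 1.61e-04), the receptor of interleukin 18. Without DAW1 cells, 3 of 7 tested were called higher in IL2RA/CTLA4 cells, KK34 (1.72, 0.765 ± 0.805, adjusted p = 1.00 and then 0.0433), IL18R1 (1.26, adjusted p = 0.615 and then 0.00578) and IL6ST, the shared receptor chain of interleukin 6 (1.25, adjusted p = 1.00 and then 0.00124). The median of this list was 1.09 in IL2RA/CTLA4 cells, against -0.02 over all genes. In CD8A cells 3 of the 7 were called higher too, IL6ST (1.39) among them, with a median of 0.69 against -0.01. In gamma-delta cells 2 were higher, KK34 and IL6ST, and 1 was lower, IL18R1. The rise was thus not particular to IL2RA/CTLA4 cells. Of these cells 70 had gamma-delta markers, and KK34 was not read without them.

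Of 8 regulatory T-cell genes tested, CCR4, a chemokine receptor, was called higher in gamma-delta cells over 5 groups (2.13, 0.463 ± 0.0871 against 0.0304 ± 0.0350, adjusted p = 0.00686 and then 2.08e-04). ENTPD1 (CD39), an enzyme that breaks down extracellular ATP, stood at 0.152 ± 0.0309 in CD8A cells and at 0 in each other group. It reached the filter mean of 0.05 through CD8A cells alone, so its call in both fits is not read as a result. Without DAW1 cells, 2 of the 8 were higher and 1 lower in gamma-delta cells, with TNFRSF9 (4-1BB), a co-stimulatory receptor, at 2.38 (adjusted p = 0.389 and then 1.77e-05) and ICOS at -2.82 (adjusted p = 0.514 and then 2.53e-10). In CD8A cells 4 were higher, ENTPD1 among them, and 1 lower. In IL2RA/CTLA4 cells 0 of the 8 were called in either limma fit. At an unadjusted p under 0.05 there were 0 and then 4, beside 403 of 10766 and then 1174 of 10232 genes. ICOS stood at 4.81 ± 0.374 against 3.63 ± 0.527 (adjusted p = 1.00 and then 0.354). Of 8 resting T-cell genes, 4 were called lower in gamma-delta than in CD4 cells over 5 groups, beside 0.650% of all genes. They were led by SATB1, a chromatin organiser of T cells (log2 difference -2.50, 5.71 ± 0.687 against 32.7 ± 2.57, adjusted p = 2.64e-04 and then 2.99e-10), and CCR7, the receptor for entry into lymph nodes (-1.92, adjusted p = 0.0181 and then 2.85e-04). In DAW1 cells 6 of the 8 were called lower, where 27.6% of all genes were, with a median of -1.09 for the list and -0.65 over all genes. Among them was TCF7, a factor of resting and memory T cells (-2.93, 7.31 ± 4.78 against 44.2 ± 3.97, adjusted p = 6.28e-04). In IL2RA/CTLA4 cells SATB1, LEF1 and TCF7 were lower without DAW1 cells (log2 differences -1.03, -0.92 and -0.82, adjusted p = 7.97e-04, 0.00732 and 0.0149, against 0.555, 0.994 and 1.00 over 5 groups). The median of the resting list in gamma-delta cells was -1.11, against -0.07 over all genes. In CD8A cells 4 of the 8 were lower without DAW1 cells and 0 over 5 groups. Over 5 groups 2 had an unadjusted p under 0.05, beside 650 of 10766 genes.

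Over the 15 profiles of 5 groups in 3 hens, 4760 genes with a group mean of 0.5 or more were ranked by Pearson's r with each of the 3 genes on the log2 scale. The profiles share hens and libraries, and the values are given as a description. Among the genes closest to MAF were RXRA (r = 0.95), a nuclear receptor partner, SELP (0.91), an adhesion molecule, GPR183 (0.90), a receptor that guides cell migration, and JUN (0.90). Without the DAW1 profiles these values were 0.93, 0.90, 0.90 and 0.96. RXRA stood at 2.77 in gamma-delta cells and between 0.208 and 0.716 in the other groups.

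Closest to RORA were the clock gene CRY1 (0.94), STAT4 (0.92), a factor of interleukin 12 signalling, PASD1 (0.88), TXK (0.84), a kinase of T cells, and LOC112533502 (0.83). CRY1 had a mean of 10.5 in DAW1 cells, 4.38 in gamma-delta, 5.57 in IL2RA/CTLA4, 2.84 in CD4 and 0.852 in CD8A cells. Without the DAW1 profiles the values in the order named were 0.91, 0.88, 0.72, 0.98 and 0.78. IKZF2 had no close likeness of this size. Its highest values were RABGAP1L (0.77), HMGB1 (0.76), GPRIN3 (0.73), KMT2A (0.73) and IQGAP3 (0.71), or 0.87, 0.65, 0.74, 0.52 and 0.62 without the DAW1 profiles. Their group means were close, as for RABGAP1L with 7.28 in IL2RA/CTLA4 and 5.60 in CD4 cells. Among the 3 genes themselves, r was 0.64 for MAF and RORA, 0.13 for MAF and IKZF2, and -0.34 for RORA and IKZF2. Without the DAW1 profiles these were 0.82, 0.21 and -0.05.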

How the data were processed

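Leukocytes of 4 hens were sequenced as 4 droplet-based libraries, 1 per hen and 1 condition. Per the paper's methods, the authors aligned reads with Cell Ranger to RefSeq annotation release 106 of GRCg7b (the labels list Cell Ranger 1.2.0, the paper's methods a later version), removed doublets with DoubletDetection, filtered cells in Seurat and corrected UMI counts for depth with SCTransform. The deposited matrix holds a whole-number score for each gene and cell, which the authors rounded or corrected before deposit. It was read as corrected counts, so no count model was used, and no further doublet call was made. Correction and gene-wise smoothing can shrink differences between cells of unequal depth. Barcodes name libraries 2 to 4, and those with no prefix were taken as library 1. Barcodes prefixed for library 4 were left out as a copy of library 3, and cells that met 2 non-T thresholds (127) were left out of the groups.

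Scores were summed per group and library (15 profiles), scaled to 10000 and compared as log2(value + 0.1), so that changes of low genes are understated, with limma 3.58.1 in R 4.3.3 with a trend in the prior variance. Tests took every gene that reached a mean of 0.05 in 1 or more T groups. The genes that set the groups were tested with the rest, and so was KK34 in the KK34 comparison. Their differences were set by the rules, and they count in the shares of genes called wherever they passed. Benjamini-Hochberg adjustment ran over all genes of a comparison, with a threshold of 0.05. NumPy 2.4.6, SciPy 1.17.1 and pandas 2.3.3 were used in Python 3.11.15. Intervals of shares are 95% Clopper-Pearson and cover counting error only. A profile of fewer than 10 cells entered the fit, and means over libraries outside the 5 groups leave such libraries out. Groups share hens, and the deviations of same-hen profiles from their group means correlated by 0.125 to 0.455 between groups other than DAW1 and by -0.024 to 0.114 with DAW1. A fit with the hen as a block was an alternative. The fits were tested on simulated profiles, in which the fit over 5 groups missed most of the larger changes set in and the fit without DAW1 cells recovered them. The simulated profiles were independent, with no effect of the hen. Changes were set in gamma-delta cells alone and in genes above a minimum level. The simulation therefore does not show which fit holds for these data.

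The genes named are the 3 members, the 5 genes most like each of them by Pearson's r, and up to 2 called genes per list and direction. The rule was also applied to the fits without DAW1 cells, and IKZF1, ICOS and the genes that set or check groups are named beside it. The members and lists were chosen with earlier results of these data known. Of the listed genes, NRL, AHR, IL17A, IL17F, IL22, IL10, IL4, IL13, LRRC32, TIGIT and BACH2 were not analysed here, and some genes that the rule names are not reported here.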

Additional observations from a re-analysis of the deposited data

Results flagged for a closer look

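The following levels lie in cells that the comparisons do not use. Those of each whole group, though not of every part of it, are above those of B cells (MAF 0.0386, RORA 0.114, IKZF2 0.0131), monocytes (0.0449, 0.0366 and 0.0106) and thrombocytes (0.113, 0.0635 and 0). All are means over libraries of the score per 10000, with no test.

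A group of 87 cells had a summed score of at least 3 for CTSG, HDC and GATA2, genes of basophils and mast cells. In these cells MAF was 6.89 ± 4.28, RORA 4.15 and IKZF2 4.93 ± 1.76, with IKZF2 present in 46.0% of cells. T-cell genes were present in this group, BCL11B in 41.4% of cells. In the 47 cells without BCL11B and CD247, MAF was 2.06, RORA 0.235 and IKZF2 7.02, the last present in 61.7% of cells, from 2 libraries. In the other 40 cells they were 11.6, 7.68 and 2.71.

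A group of 442 cells had a summed score of at least 4 for DACH1, MCTP2 and IL5RA, genes linked to eosinophils. In these cells MAF was 2.18, RORA 4.16 and IKZF2 1.90, beside BCL11B in 66.5% of cells and CD247 in 52.7%. In the 121 cells without BCL11B and CD247, MAF was at 0 in all cells, which allows a share of up to 2.48%, RORA 0.405 and IKZF2 1.91 ± 0.145. In the other 321 cells they were 3.72, 5.59 and 1.95. The level of IKZF2 was thus close with and without T-cell genes, whereas RORA and MAF lay nearly all in cells with T-cell genes.

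In the 2822 cells of the T-cell gate that met no rule, MAF was 1.60, RORA 7.22 and IKZF2 1.5. MAF was 0.766 in the 2509 of these cells without gamma-delta markers and 8.23 in the 313 with a summed score of 1 to 3. IKZF2 was 0.684, 3.05 and 0.770 in libraries 1 to 3, and 17 of the 29 cells with a score of 6 or more came from library 2.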

How the results depend on the processing

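Replacing library 3 by its copy, leaving out cells over 20% mitochondrial score and testing every gene without a filter each left all 16 results against CD4 cells on their side of the threshold, and the fit with the hen as a block left all 37 results there. The fit over 5 groups rests on DAW1 profiles of 7, 2 and 16 cells, and its calls for the other groups changed with how these were treated. The cause of the other changes was not tested. The DAW1 group is limited by its few cells. Of 15 shares of cells, 7 moved by less than 1 SD when cells were thinned to 1500 and 8 moved by more.

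With the DAW1 group left out, 840, 137 and 666 genes were called in gamma-delta, IL2RA/CTLA4 and CD8A cells against CD4 cells, in place of 206, 6 and 86, and with the replicate block as well 1095, 251 and 928. In both of these fits the differences are those of the main fit by construction, since neither change alters a group mean. Only their spread could change. The differences of 3.71 for MAF and 1.69 for IKZF2 in gamma-delta cells, and of 1.90 and 3.86 in IL2RA/CTLA4 cells, all passed. So did -1.31 for MAF, -1.47 for RORA and 2.05 for IKZF2 in CD8A cells. Between the other groups, 1.81 and -2.17 (MAF and IKZF2, gamma-delta against IL2RA/CTLA4), 1.82 (RORA, gamma-delta against CD8A), and 3.22, 1.61 and 1.81 (MAF, RORA and IKZF2, IL2RA/CTLA4 against CD8A) passed too. In the KK34 comparison the block raised the count of genes called from 365 to 903. With profiles of at least 10 cells the same values passed against CD4 cells, with 802, 94 and 649 genes called, while MAF in DAW1 cells turned to 2.07 and RORA rose to 2.02. With all DAW1 cells of the gate, MAF in gamma-delta cells (3.71) and IKZF2 in IL2RA/CTLA4 cells (3.86) passed, IKZF2 in DAW1 cells was 2.01 and passed, MAF in DAW1 cells turned to 1.17, and 1414 genes were called in DAW1, 15 in IL2RA/CTLA4 and 172 in CD8A cells.

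A pseudocount of 1 gave 2.95 for MAF in gamma-delta cells and 2.34 for IKZF2 in IL2RA/CTLA4 cells, both past the threshold, 0.21 for MAF in DAW1 cells, a change of sign, and 11 genes called in IL2RA/CTLA4 cells. Centring on the median gave 3.79 for MAF in gamma-delta and 1.91 for RORA in DAW1 cells, both past it, 0.76 for MAF in DAW1 cells, and 110, 1297, 3 and 24 genes called in gamma-delta, DAW1, IL2RA/CTLA4 and CD8A cells. Without cytolytic cells MAF in gamma-delta cells (3.72), RORA in DAW1 cells (1.89) and RORA in CD8A cells (-1.46) passed, MAF and IKZF2 in DAW1 cells turned to 1.30 and -0.10, and 317, 11 and 41 genes were called in gamma-delta, IL2RA/CTLA4 and CD8A cells. With stricter thresholds IKZF2 passed at 1.57 in DAW1, 4.53 in IL2RA/CTLA4 and 2.30 in CD8A cells, at -2.67 between gamma-delta and IL2RA/CTLA4 cells and at 2.23 between IL2RA/CTLA4 and CD8A cells. RORA between DAW1 and CD8A cells (2.01) no longer did, MAF in DAW1 cells turned to 0.37, and 1597 genes were called in DAW1 and 35 in IL2RA/CTLA4 cells. Without the T-cell gate RORA in IL2RA/CTLA4 cells turned to -0.80 and 281 genes were called there. With cells put in the first group met, RORA between gamma-delta and IL2RA/CTLA4 cells turned to -0.11, MAF passed at -3.49 between DAW1 and IL2RA/CTLA4 cells and at 4.43 between IL2RA/CTLA4 and CD8A cells, and 73 genes were called in IL2RA/CTLA4 cells.

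When each library was left out in turn, in the fits with and without DAW1 cells, 52 to 791 genes were called in gamma-delta, 1505 to 3930 in DAW1, 2 to 138 in IL2RA/CTLA4 and 13 to 528 in CD8A cells. Against CD4 cells, MAF ranged from 3.60 to 3.79 in gamma-delta, -1.51 to 1.06 in DAW1, 1.67 to 2.02 in IL2RA/CTLA4 and -1.56 to -1.02 in CD8A cells. RORA ranged from 0.13 to 1.85 in DAW1 and -1.70 to -1.25 in CD8A cells, and IKZF2 from 1.35 to 2.11 in gamma-delta, 3.49 to 4.17 in IL2RA/CTLA4 and 2.02 to 2.12 in CD8A cells. For gamma-delta against DAW1 cells the ranges were 2.54 to 5.26 for MAF, -1.57 to 0.20 for RORA and -0.12 to 1.94 for IKZF2. Against IL2RA/CTLA4 cells they were 1.57 to 2.08, -0.01 to 0.37 and -2.30 to -2.06, and against CD8A cells 4.77 to 5.35, 1.53 to 2.13 and -0.68 to 0.10. For DAW1 against IL2RA/CTLA4 cells they were 0.06 to 1.56 for RORA and -4.00 to -2.03 for IKZF2, and against CD8A cells -0.49 to 2.41 for MAF and 1.59 to 3.10 for RORA. For IL2RA/CTLA4 against CD8A cells they were 2.69 to 3.58, 1.53 to 1.76 and 1.46 to 2.16, and RORA between the KK34 groups ranged from -0.11 to 0.03.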

Other observations

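The level of IKZF2 outside gamma-delta and DAW1 cells was 1.25 ± 1.05 where IL2RA and CTLA4 were both 0 and 2.81 ± 1.09 where their summed score was 1. It was 7.76 ± 8.60 at 2 (1.25 to 17.5), 7.27 at 3 to 4 and 11.1 ± 5.23 at 5 or more. The libraries at a score of 2 thus spread too far to place that step, and all values at 3 to 4 come from 2 libraries. MAF was 1.28, 3.26, 4.23, 8.41 and 6.23 in the same cells, and RORA 7.05, 9.50, 10.3, 13.3 and 10.3. The 382 cells that met 2 of the first 3 rules, and entered no comparison, had 15.5 ± 1.61 for MAF, 15 ± 1.61 for RORA and 2.05 ± 0.312 for IKZF2, and held 14.6% of the MAF score. In the 33 cells with DAW1 and with IL2RA or CTLA4, RORA was 31.9, 12.9 and 51.8 and IKZF2 5.10, 0 and 1.85 in libraries 1 to 3.

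IKZF2 was also highest in library 2 in sets of cells that overlap the 5 groups, so these values are no separate observation. The 349 CD8A cells with cytolytic genes are among the 842 cytolytic cells. In the cytolytic cells it was 5.03 in library 2, against 1.68 and 1.51 in libraries 1 and 3, and in the cells of the gate with a summed gamma-delta marker score of 1 it was 9.72, against 1.73 in both others.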
